A study of Mus musculus with 4 samples.

Results

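Spots with the deposited region label Hypothalamus and the deposited expression cluster 4 were described in 4 Visium sections of mouse brain hemispheres, under the working name of hypothalamic spots rich in Th and Calb2. The values below bear out the name for Calb2 but not for most spots in the case of Th. Th had few UMIs, which lay mostly in a few of the spots. They were 484 of the 10549 spots over tissue: 218 in the 5xFAD-Dp16 section, 116 in the 5xFAD section, 146 in the Dp16 section and 4 in the wild-type section. Visium captures the RNA of a tissue section on an array of barcoded spots, so that a spot is a small region that can hold parts of several cells. The sections were 10 µm thick, from frozen hemispheres of male mice aged 9 months, taken between bregma 1 and -2 mm. Each genotype had 1 section. 5xFAD mice form amyloid plaques from mutant human transgenes of familial Alzheimer's disease, driven by Thy1 regulatory elements that act mainly in neurons. In Dp16 mice a stretch of mouse chromosome 16 is duplicated, the counterpart of a large share of human chromosome 21. 5xFAD-Dp16 mice carry both, and the wild-type mouse was C57BL/6J, the only background the labels give.

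The hypothalamus controls feeding, body temperature, stress hormones and arousal through many small groups of neurons, each known by the peptides and transmitters it makes. Th encodes tyrosine hydroxylase, the first enzyme of catecholamine synthesis, which some hypothalamic and many midbrain neurons use to make dopamine. Calb2 encodes the calcium-binding protein calretinin, Adcyap1 the neuropeptide PACAP, and Nxph4 a neurexophilin, a secreted protein of a family that binds neurexins at synapses. These 4 genes had been given as markers of the spots.

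Cluster 4 spots made up 44.8% of the spots labelled Hypothalamus in 5xFAD-Dp16 (exact binomial 95% interval 40.3 to 49.3), 41.0% in 5xFAD (35.2 to 47) and 43.3% in Dp16 (38.0 to 48.8), against 1.57% in wild-type (0.431 to 3.98). In wild-type, 212 of the 254 spots labelled Hypothalamus lay in cluster 15, which held 1 such spot in 5xFAD-Dp16 and none in the other two sections. Cluster 6 held 136, 104 and 150 of these spots in 5xFAD-Dp16, 5xFAD and Dp16, against 10 in wild-type, and in Dp16 it was slightly larger than cluster 4. The share of cluster 4 and the plane of the section cannot be told apart from genotype, because each genotype is 1 section. The median depth of the cluster 4 Hypothalamus spots was 11537.5 UMIs (unique molecules) in 5xFAD-Dp16, 11422 in 5xFAD and 11791 in Dp16, with medians of 16.9, 14.8 and 17.6% mitochondrial UMIs. Summed over spots, they held 2563921, 1424168 and 1849178 UMIs, against 27397 in wild-type.

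**Figure D1:**
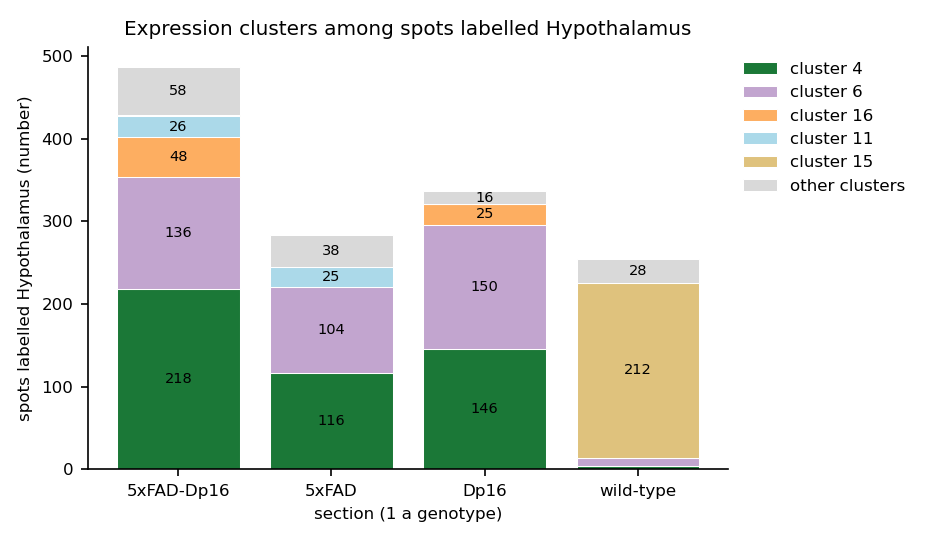
Number of spots labelled Hypothalamus in each of the 4 sections, stacked by deposited expression cluster. Cluster 4 (green) held 218, 116 and 146 spots in 5xFAD-Dp16, 5xFAD and Dp16 and 4 in wild-type, where cluster 15 held 212.

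The 4 wild-type spots were too few for comparison and are given as values only. They had 3481, 8502, 11315 and 4099 UMIs. Calb2 had 2, 14, 5 and 0 UMIs in them and Th had 1 UMI in the third spot, while Nxph4 and Adcyap1 had none in any. Wild-type spots of the other clusters labelled Hypothalamus had Calb2 at 322 CPM and Th at 63.4 CPM. The mutant sections are therefore set against each other and against other spots of their own section. Ratios below are log2 ratios of CPM, the summed UMIs of a gene scaled to a common total, and their exact intervals hold counting error alone. No p-value was computed, since spots of 1 section are not replicates. In such sums, fewer cells of a type and less RNA per cell cannot be told apart.

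Because the clusters were made from expression, genes that set cluster 4 Hypothalamus spots apart from other spots are a description of the cluster, not a test. They were set against the other spots labelled Hypothalamus, 269 in 5xFAD-Dp16, 167 in 5xFAD and 191 in Dp16. Calb2 had 590 CPM in 5xFAD-Dp16, 580 in 5xFAD and 572 in Dp16, against 261, 116 and 160 CPM in the other Hypothalamus spots of those sections. The levels of the 3 sections were close to each other and all lay above those of the other spots, with log2 ratios of 1.17, 2.33 and 1.84. Adcyap1 had 131, 183 and 145 CPM, against 42.8, 72.4 and 36.5 CPM (log2 ratios 1.61, 1.33 and 1.99). Nxph4 had 35.5, 65.3 and 50.3 CPM, against 10.9, 27.1 and 17.1 CPM (log2 ratios 1.70, 1.27 and 1.56). For both genes, too, every section was higher in the cluster 4 spots. Beside Adcyap1, the other 2 measured genes of PACAP signalling were not past 1.5-fold in every section, and its receptor gene Adcyap1r1 had 81.5, 89.2 and 89.2 CPM, against 70.5, 67.7 and 81.0 CPM. Of 5 neurexophilin and neurexin genes Nxph4 was higher and Nrxn3, a presynaptic neurexin, was lower, with 32.8, 46.3 and 55.7 CPM, against 63.5, 106 and 106 CPM. Over all genes, 0.673% were higher and 1.08% were lower in every section.

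Th was the least even of the 4 markers. It had 16.8 CPM in 5xFAD-Dp16, 49.2 in 5xFAD and 46.0 in Dp16, against 8.2, 2.61 and 7.54 CPM in the other Hypothalamus spots, with log2 ratios of 1.03, 4.24 and 2.61. These CPM values stand for only 43, 70 and 85 UMIs. All 3 levels were below that of the wild-type spots of other clusters labelled Hypothalamus. Beyond the label, Th was also in cluster 4 spots with other region labels, at 27.6, 24.2 and 107 CPM. Of 8 catecholamine genes measured against the other Hypothalamus spots, Th was the only one past 1.5-fold in every section. Over all genes 0.673% were higher by this rule, and Th had been given as a marker. Over the other cluster 4 spots the direction of Th was not shared, since the log2 ratios of the Hypothalamus spots over these were -0.72, 1.02 and -1.22.

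**Figure D2:**
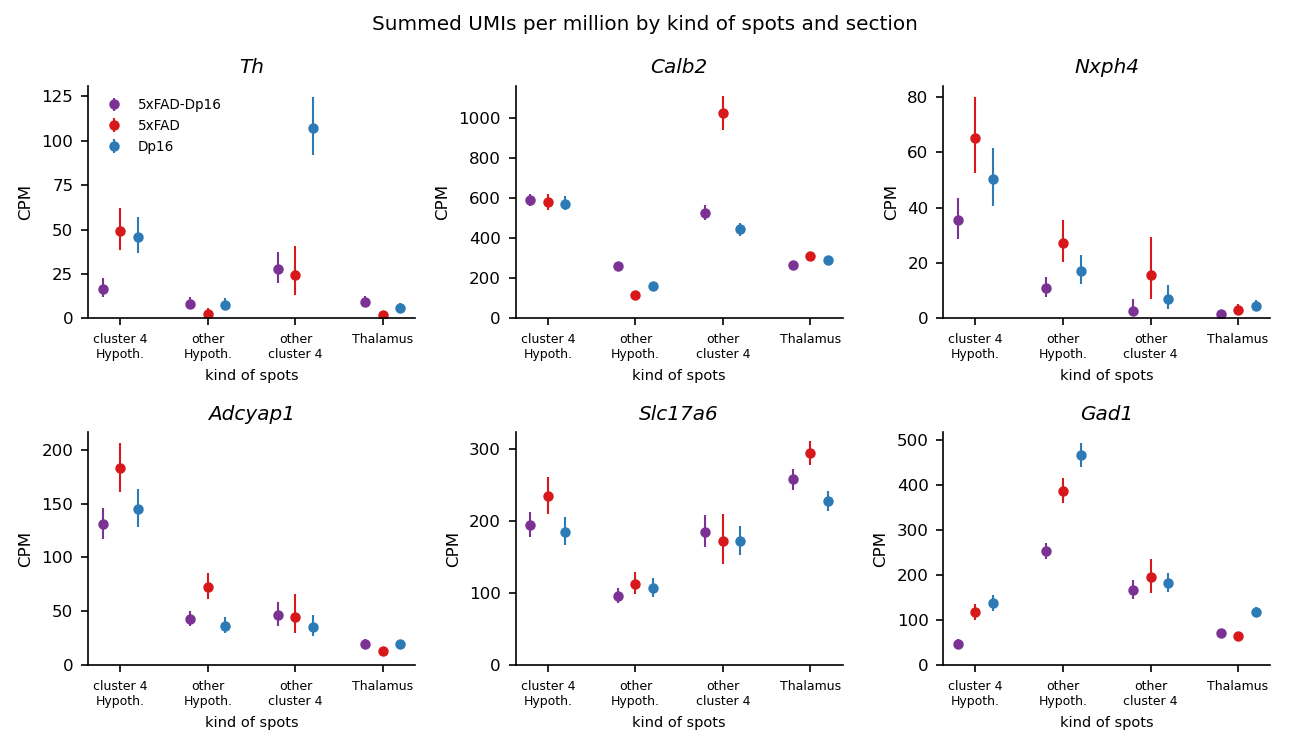
CPM of 6 genes (y axis, starting at 0) in 4 kinds of spots (x axis) of the 5xFAD-Dp16, 5xFAD and Dp16 sections. Points are CPM and bars exact 95% Poisson intervals of counting error. Calb2, Nxph4, Adcyap1 and Slc17a6 were higher, and Gad1 lower, in cluster 4 Hypothalamus spots than in other Hypothalamus spots of every section, while Th was highest in the other cluster 4 spots of Dp16.

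Across all genes of at least 20 CPM, 40 of 5945 were at least 1.5-fold higher beyond counting error in every section than in the other Hypothalamus spots (0.673%), and 64 were lower (1.08%). The median log2 ratio of all these genes was -0.01, 0.04 and -0.02 in 5xFAD-Dp16, 5xFAD and Dp16. The counts rest on all 3 sections passing. Without the 5xFAD-Dp16 section 129 genes were higher, and without the Dp16 section 159 were lower. Among the 15 highest, Sncg, which encodes gamma-synuclein, had 158, 190 and 209 CPM in 5xFAD-Dp16, 5xFAD and Dp16, against 73.8, 63.6 and 78.2 CPM in the other Hypothalamus spots (log2 ratios 1.10, 1.58 and 1.42).

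Other genes among the 15 highest encode secreted or synaptic proteins. The synapse organiser Cbln1 had log2 ratios of 1.40, 1.38 and 1.84 in 5xFAD-Dp16, 5xFAD and Dp16, and C1ql1, which encodes another secreted protein of the C1q family, had 1.60, 1.51 and 1.33. The neurotrophin gene Bdnf had 1.23, 1.36 and 1.53. Synpr, encoding the synaptic vesicle protein synaptoporin, had 2.14, 1.53 and 1.21. In the counts of list members that follow, 0.673% of all genes were higher and 1.08% were lower by the same rule. Of 12 genes of calcium-binding proteins, Calb2, Necab2 and Hpcal1 were higher and Pvalb was lower. Of 12 neuropeptide and neurotrophin genes of the hypothalamus, Adcyap1 and Bdnf were higher and Tac2, which encodes neurokinin B, was lower (log2 ratios -0.63, -2.08 and -1.38). Among 27 transcription factor genes of the hypothalamus none averaged 20 CPM over both kinds of spots. Of them, Foxb1, a forkhead factor of the mammillary area in mice, had 16.8, 28.8 and 18.9 CPM, and Nkx2-1, a factor of ventral forebrain development, had 17.2, 23.2 and 9.73 CPM. In the other Hypothalamus spots Foxb1 had 6.08, 9.38 and 5.56 CPM and Nkx2-1 had 12.8, 15.6 and 7.54 CPM. The region label thus had few counts of such factors behind it, and by the smallest of their 3 ratios Cbln1, Adcyap1 and C1ql1 stood before Th. The summed factor list had 114, 131 and 110 CPM, against 170, 106 and 121 CPM, with 5, 8 and 5 of its 27 genes at 0 in the cluster 4 Hypothalamus spots.

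Transmitter genes separated the spots. Slc17a6, the vesicular glutamate transporter of subcortical neurons, had 195, 235 and 185 CPM in 5xFAD-Dp16, 5xFAD and Dp16, against 96.0, 113 and 108 CPM in the other Hypothalamus spots (log2 ratios 1.02, 1.05 and 0.79). Gad1, an enzyme of GABA synthesis, had 47.6, 117 and 137 CPM, against 253, 388 and 467 CPM (-2.41, -1.73 and -1.77). The vesicular GABA transporter Slc32a1 had log2 ratios of -1.64, -0.85 and -1.32. The other Hypothalamus spots thus had more of the GABA genes in every section. Of 6 GABA genes, 3 were lower, beside 1.08% of all genes, with list medians of -0.82, -0.44 and -0.42. Pvalb, the calcium buffer parvalbumin of fast-spiking neurons, had -2.51, -1.62 and -1.73, and Syt2 and Cplx1, which act in fast transmitter release, had -2.01, -2.49 and -2.21 and -1.45, -1.58 and -1.53. Spp1, which encodes the secreted phosphoprotein osteopontin, had -2.70, -2.48 and -2.16.

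Some glial and blood genes were lower in the cluster 4 Hypothalamus spots. Among all genes, 1.08% were lower and 0.673% were higher in every section. Of 13 oligodendrocyte genes, Mog and Aspa were lower and none was higher, with list medians of -0.61, -0.68 and -0.48 in 5xFAD-Dp16, 5xFAD and Dp16. Summed, the list had 5083, 5972 and 6207 CPM, against 7713, 9616 and 7857 CPM in the other Hypothalamus spots, and none of its genes was at 0. The astrocyte filament gene Gfap had 27.7, 118 and 21.6 CPM, against 125, 413 and 47.2 CPM. Of 4 complement genes, C1qb and C1qc, subunits of the first complement component made by microglia, were lower. Of 4 blood genes the 3 haemoglobin genes Hba-a1, Hba-a2 and Hbb-bs were lower, and the summed list of 5 had 238, 391 and 210 CPM, against 1082, 3595 and 426 CPM. The part of these cell types in the neuronal differences was not tested.

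Cluster 4 also held 125, 55 and 142 spots with other region labels in 5xFAD-Dp16, 5xFAD and Dp16, of which 110, 46 and 130 were labelled Thalamus. Against them, 15 of 5930 genes were higher in the Hypothalamus-labelled spots (0.253%) and 22 were lower (0.371%). Nxph4 had log2 ratios of 3.68, 2.07 and 2.87, Adcyap1 of 1.5, 2.02 and 2.03, and Tac1, the gene of substance P and neurokinin A, of 2.10, 1.33 and 0.75. Nr4a2, a nuclear receptor needed by midbrain dopamine neurons, had 1.01, 1.51 and 0.95, while Th was not higher in every section, as given above. Tac2, which was lower than in the other Hypothalamus spots, was higher here in every section, with a smallest log2 ratio of 1.64. Calb2 did not separate the 2 kinds of spots, with 0.17, -0.82 and 0.37. The lowest genes included Tcf7l2 (-3.98, -3.02 and -4.08) and Shox2 (-5.63, -3.22 and -4.23), transcription factors of thalamic neurons, Reln (-2.17, -2.12 and -1.87), the extracellular matrix protein reelin, and the peptide gene Pth2 (-8.81, -3.38 and -6.39).

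Against all spots labelled Thalamus, 111 of 6209 genes were higher (1.79%) and 415 were lower (6.68%), with medians of all genes at -0.14, -0.12 and -0.05. Of 13 thalamic genes 12 were lower, with list medians of -3.79, -3.54 and -3.64, and Calb2 was higher. The kinase gene Prkcd, which marks thalamic relay neurons, had 24.6, 28.1 and 20 CPM in 5xFAD-Dp16, 5xFAD and Dp16, against 612, 766 and 404 CPM in Thalamus spots. Peptide genes were among the highest: Tac1 had log2 ratios of 3.54, 3.04 and 2.10 and Cartpt, the gene of the satiety peptide CART, had 2.45, 4.71 and 4.90. Dlk1, a Notch ligand family member, had 2.41, 2.53 and 1.97. Of 12 genes of peptide processing and storage, Scg2, Resp18 and Nnat were higher and Pcsk2 was lower.

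Within the cluster 4 Hypothalamus spots, the markers were spread very differently. In 5xFAD-Dp16, 5xFAD and Dp16 the 10% of spots with most Calb2 held 33.7, 34.6 and 34.4% of its UMIs, and for Adcyap1 the shares were 39.1, 36.5 and 47.4%. For Th they were 97.7, 95.7 and 82.4%. A gene with few UMIs is always uneven, so Nkx2-1 is set beside it. With 44 and 33 UMIs in 5xFAD-Dp16 and 5xFAD, its top 10% of spots held 84.1 and 84.8%. In Dp16 it had only 18 UMIs and its share was 100%, above that of Th. The highest Nkx2-1 spots of 5xFAD-Dp16, 5xFAD and Dp16 had 4, 5 and 3 UMIs, while the highest Th spots had 15, 24 and 43. With every spot thinned to 5447 UMIs, the variance of Th was 4.54, 3.98 and 4.14 times its mean, against 1.06, 1.15 and 1.37 times for Nkx2-1. Of the 218, 116 and 146 spots, 27, 3 and 17 were shallower and were left out of thinned values.

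**Figure D3:**
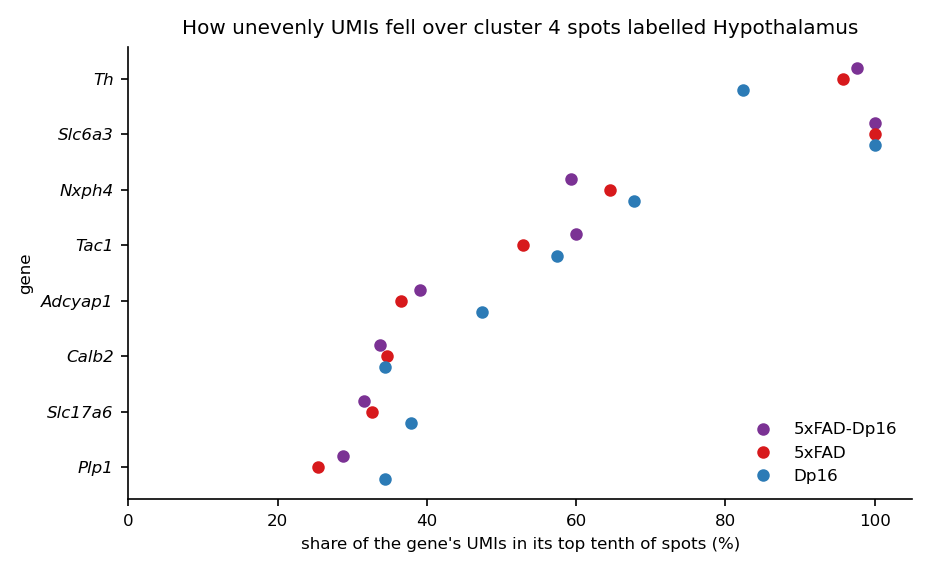
Share of each gene's UMIs (x axis, %) in the 10% of cluster 4 Hypothalamus spots with most of them, for 8 genes (y axis) in the 5xFAD-Dp16, 5xFAD and Dp16 sections. Th lay between 82.4 and 97.7% and Calb2 between 33.7 and 34.6%; Slc6a3 had only 9 UMIs in 5xFAD-Dp16.

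The share of thinned spots with at least 1 UMI of Th was 5.76% in 5xFAD-Dp16 (2.91 to 10.1), 9.73% in 5xFAD (4.96 to 16.8) and 10.9% in Dp16 (6.06 to 17.5), against 3.24, 1.29 and 2.19% in the other Hypothalamus spots. Unthinned shares were 10.6, 12.9 and 20.5%. Spots labelled Cortex PTL, which should have little Th, had thinned shares of 0, 2.13 and 2.08%. The intervals of 5xFAD-Dp16 overlapped those of the other two sections. Calb2 was found in 80.6, 77.0 and 76.7% of thinned spots (unthinned 80.3, 86.2 and 83.6%), Adcyap1 in 44.5, 49.6 and 41.1% (57.3, 69.0 and 59.6%) and Nxph4 in 16.2, 15.9 and 16.3% (26.6, 28.4 and 28.1%). In Cortex PTL spots the thinned shares were 7.61, 5.32 and 5.21% for Calb2 and 13, 18.1 and 14.6% for Adcyap1, and at most 1.09% for Nxph4. The medians of UMIs per spot there were 7999, 6855.5 and 8538.

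Spots with at least 2 Th UMIs numbered 5 in 5xFAD-Dp16, 8 in 5xFAD and 6 in Dp16, and held 58.1, 90.0 and 71.8% of all Th UMIs with 2.83, 6.55 and 4.97% of all UMIs. In 5xFAD and Dp16 they also held 51 of 54 and 45 of 58 UMIs of Slc6a3, the dopamine transporter. In 5xFAD-Dp16 they held none of its 9. Ddc, the enzyme that makes dopamine from DOPA, had 396.7 CPM in those spots of 5xFAD and 381 CPM in those of Dp16, against 22.5 and 18.2 CPM in the remaining spots of those sections. In 5xFAD-Dp16 it had 41.4 CPM, from 3 UMIs, against 22.1 CPM. Slc18a2, the vesicular monoamine transporter, had 110, 268 and 152 CPM in the Th spots of 5xFAD-Dp16, 5xFAD and Dp16, against 20.1, 27.0 and 26.2 CPM. In the Th spots Calb2 had 1007, 976 and 522 CPM, from 73, 91 and 48 UMIs, against 578, 552 and 574 CPM. Calb2 was thus higher in the few Th spots of 5xFAD-Dp16 and 5xFAD and not in those of Dp16. Gad1 had 55.2, 10.7 and 97.9 CPM in the Th spots of the 3 sections, from 4, 1 and 9 UMIs. The spots were chosen for Th, so the values describe them only.

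The 12 genes of a midbrain dopamine neuron list had summed levels of 154, 262 and 249 CPM in the cluster 4 Hypothalamus spots of 5xFAD-Dp16, 5xFAD and Dp16, against 179, 187 and 219 CPM in the other Hypothalamus spots. Of these genes, 5 reached 20 CPM. Pitx3, En1 and En2 were at 0 in 5xFAD-Dp16, none was at 0 in 5xFAD, and En2 was at 0 in Dp16. Whether fibres or cells of midbrain dopamine neurons lay in the Th spots was not tested.

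Correlations across thinned spots are given as a description (Spearman's rho over 191, 113 and 129 spots of 5xFAD-Dp16, 5xFAD and Dp16, which share a library and a depth). Th and Slc6a3 had 0.27, 0.48 and 0.36, and Th and Calb2 had 0.18, 0.12 and 0.07. Calb2 had 0.24, 0.30 and 0.19 with Slc17a6 and -0.18, -0.33 and -0.40 with Gad1. Gad1 and Gad2, the 2 enzymes of GABA synthesis, had 0.30, 0.56 and 0.44. Nxph4 and Calb2 had -0.23, -0.16 and -0.03.

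The deposited marks called 9 cluster 4 Hypothalamus spots of 5xFAD-Dp16 plaque spots (4.13%, 1.90 to 7.69) and 13 of 5xFAD (11.2%, 6.10 to 18.4), and none in Dp16 or wild-type. A further 32 and 29 were marked as plaque neighbours. In the other Hypothalamus spots 16.4% and 30.5% were plaque spots. The sources used here do not give the method of marking. A list of 28 microglial genes known from plaques had 6064 CPM in the plaque spots of 5xFAD-Dp16 and 8513 CPM in those of 5xFAD, against 3853 and 4155 CPM in unmarked spots (log2 ratios 0.65 and 1.03). Neighbour spots lay between, at 4327 and 5591 CPM. The microglial adaptor Tyrobp had 316 and 666 CPM in plaque spots, against 121 and 140 CPM in unmarked spots (1.38 and 2.25). The protease inhibitor gene Serpina3n, a marker of reactive astrocytes, had log2 ratios of 2.57 and 2.71, from 13 and 47 UMIs in plaque spots. Gfap had 1.22 and 1.91 and the microglial receptor gene Trem2 1.00 and 2.80. In 5xFAD-Dp16 their intervals (-0.29 to 2.44 and -0.36 to 2.12) included no difference.

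Calb2 was at 414 CPM in the plaque spots of 5xFAD-Dp16 and 258 CPM in those of 5xFAD, against 635 and 736 CPM in unmarked spots, with log2 ratios of -0.62 and -1.51. Neighbour spots had 386 and 415 CPM. Nxph4 went the other way, with 69.0 and 146 CPM in plaque spots, against 33.5 and 26.4 CPM in unmarked spots. Its log2 ratio was 1.04 in 5xFAD-Dp16, with an interval of -0.32 to 2.16 that includes no difference, and 2.46 in 5xFAD (1.62 to 3.33). Adcyap1 had -0.45 and -0.18. Th had no UMI in any plaque spot. Plaque spots are few and lie together with their neighbours in the tissue, and whether their place among the spots goes with these levels was not tested.

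**Figure D4:**
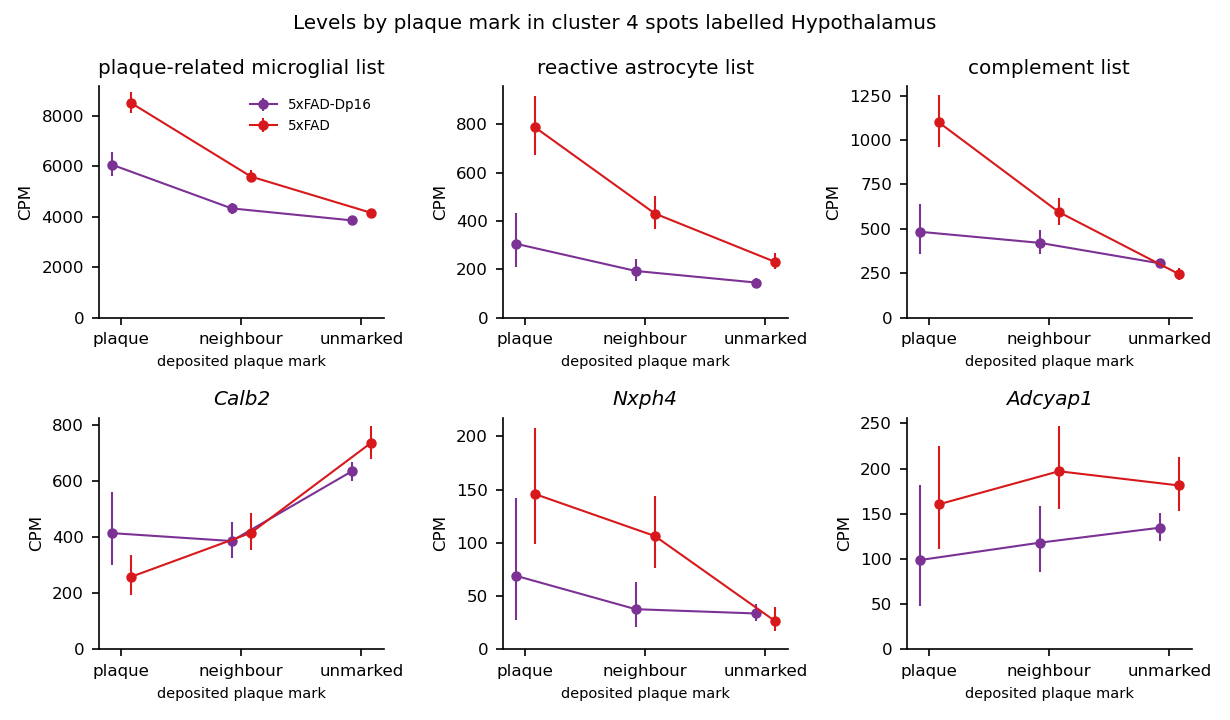
CPM (y axis, starting at 0) of 3 gene lists and 3 genes in plaque, neighbour and unmarked spots (x axis) among cluster 4 Hypothalamus spots of 5xFAD-Dp16 and 5xFAD. Points are CPM and bars exact 95% Poisson intervals; the 3 lists were highest in plaque spots and Calb2 was highest in unmarked spots of both sections.

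For the duplication the ratio was 5xFAD-Dp16 over 5xFAD, the only pair differing in it with at least 30 cluster 4 Hypothalamus spots on both sides. Of 5876 genes, 98 were at least 1.5-fold higher (1.67%) and 251 were at least 1.5-fold lower (4.27%), and the median of all genes was -0.06. Beyond counting error these numbers were 86 and 228. With TMM scaling the split was 180 higher and 163 lower, so the excess of lower genes depended on the scaling. Of the genes listed for the duplicated segment, which spans chromosome 16 from 75540514 to 97962627 on GRCm38, 40 reached 20 CPM. Of these, 18 were higher and none was lower, with a median log2 ratio of 0.53 (0.43 to 0.65).

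Ifngr2, a subunit of the interferon gamma receptor, had 29.6 CPM in 5xFAD-Dp16, against 9.13 CPM in 5xFAD (log2 ratio 1.70, interval 0.84 to 2.67). Jam2, a junctional adhesion molecule, had 41.0 against 15.4 CPM (1.41), Smim11 118 against 57.6 CPM (1.04), the transcription factor gene Ets2 0.88 and the purine synthesis gene Gart 0.86. Atp5j, a subunit of the mitochondrial ATP synthase with many more UMIs, had 1585 CPM against 1053 CPM (0.59). Jam2 had 52.0 and 34.2 CPM in Thalamus spots of 5xFAD-Dp16 and 5xFAD, and Ifngr2 46.4 and 29.1 CPM. The lowest ratios were those of Paxbp1 (-0.03), B3galt5 (0.04) and Ltn1 (0.06). In 5xFAD-Dp16 over Dp16, where both mice carry the duplication, 2 of the 40 genes were past 1.5-fold, Olig2 (-0.79) and B3galt5 (-0.65), and the median was -0.10.

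**Figure D5:**
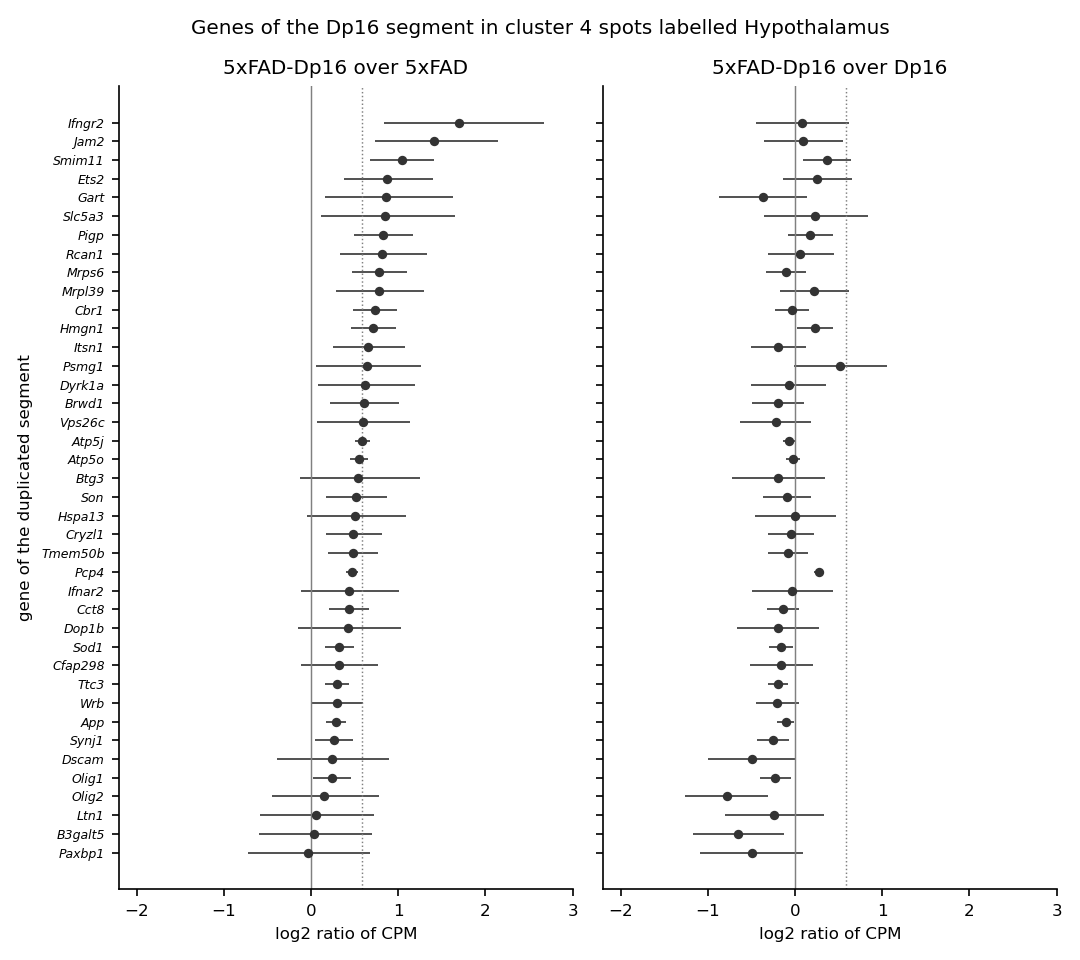
Log2 ratios of CPM (x axis) of the 40 segment genes of at least 20 CPM (y axis) in cluster 4 Hypothalamus spots, 5xFAD-Dp16 over 5xFAD on the left and 5xFAD-Dp16 over Dp16 on the right. Bars are exact 95% intervals of counting error and the dotted line marks 1.5-fold; the medians were 0.53 and -0.10.

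Among the markers, Calb2 was at nearly the same level in 5xFAD-Dp16 and 5xFAD (log2 ratio 0.02), and Adcyap1 had -0.48, short of 1.5-fold. Th was lower, with 43 UMIs in 5xFAD-Dp16 against 70 UMIs in 5xFAD (-1.55, -2.13 to -0.98), and Nxph4 was lower (-0.88). Slc6a3 had the lowest ratio outside the segment, with 9 against 54 UMIs (-3.43). Ddc (-1.06) and Slc18a2 (-0.92) were lower as well, so that 4 of 10 catecholamine genes were lower and none was higher. By this rule 4.27% of all genes were lower and 1.67% were higher. Of the Slc6a3 UMIs of 5xFAD, 94.4% came from the 8 spots with at least 2 Th UMIs, and 1 spot held 29 of the 54. The same 8 spots held 55.2% of the Ddc UMIs and 41.0% of the Slc18a2 UMIs of 5xFAD, so these genes are not separate results. The spot with most Th UMIs held 24 of the 70 in 5xFAD and 15 of the 43 in 5xFAD-Dp16. Without that single 5xFAD spot, chosen for each gene after its values were seen, the log2 ratio was -0.96 for Th, -2.34 for Slc6a3, -0.59 for Ddc and -0.46 for Slc18a2, the last no longer past 1.5-fold. With the top spot left out in both sections, the values were -1.57 for Th, -2.69 for Slc6a3, -0.66 for Ddc and -0.67 for Slc18a2. All of these were past 1.5-fold. All 3 main GABA genes were lower: Gad1 (-1.30), Slc32a1 (-1.05) and Gad2 (-1.04). Pvalb had -1.44. The peptide genes Tac1 (0.68) and Penk (0.70), which encodes enkephalins, were higher, and Npy (-1.95) and Cartpt (-1.70) were lower. Synpr was higher (0.88).

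Bc1, a noncoding RNA of neuronal dendrites, had 22095 CPM in 5xFAD-Dp16 against 9811 CPM in 5xFAD (1.17), and 10634 against 5879 CPM in the Thalamus spots of the same sections. Lbhd2 (1.31), Mpped1 (1.27), Acin1 (1.34), Myh7 (1.11), Riiad1 (1.10), Crim1 (1.08) and Cacna1b (1.00) were the other highest genes outside the segment, at 28.1 to 81.9 CPM in 5xFAD-Dp16. Rprm (-2.40), Kcnab3 (-2.38), Ctxn3 (-2.27) and Ttr (-1.80) were among the lowest. Ttr encodes transthyretin, an abundant product of the choroid plexus, and the summed list of 10 choroid plexus genes had 166 CPM in 5xFAD-Dp16, 497 in 5xFAD and 929 in Dp16. The part of choroid plexus RNA was not tested.

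Some genes of microglia and astrocytes known from plaques were lower in 5xFAD-Dp16 than in 5xFAD. Cst7 had 14 against 85 CPM (-2.60) and Gfap 27.7 against 118 CPM (-2.09). Of 18 plaque-related microglial genes 7 were lower and none was higher, with a median of -0.44, and all 4 reactive astrocyte genes were lower, with a median of -1.18. Of 4 complement genes 2 were lower, with a median of -0.53. By the same rule 4.27% of all genes were lower and 1.67% were higher. The 5xFAD section had the larger share of plaque spots. Without plaque and neighbour spots in either section, the microglial median was -0.06 and the reactive astrocyte median was -0.64. The complement median was 0.30, of the opposite sign. The median of all genes without those spots is not given here. Whether the share of plaque spots goes with these levels was not tested.

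For the 5xFAD transgenes the ratio was 5xFAD-Dp16 over Dp16, which shares the 5xFAD-Dp16 section with the ratio above. Of 5876 genes, 96 were higher (1.63%) and 199 were lower (3.39%), with the median of all genes at -0.07. Beyond counting error there were 90 and 192, and with TMM scaling 149 and 131. Thy1, whose regulatory elements drive the transgenes, had 641 CPM in 5xFAD-Dp16 and 822 CPM in 5xFAD, against 474 CPM in Dp16. Of the 18 plaque-related microglial genes 5 were higher (Cst7, Trem2, Tyrobp, Lyz2 and Ly86) and none was lower, with a median of 0.38, or 0.20 over the 15 genes still at 20 CPM without plaque and neighbour spots. Cst7, a cysteine protease inhibitor, had 36 UMIs in 5xFAD-Dp16 and none in Dp16. Its log2 ratio was 3.11 with a floor of 3 UMIs set in place of 0 in the Dp16 spots. Trem2, a lipid-sensing receptor of microglia, had 35.5 against 17.8 CPM (0.99). C1qc (0.71), Serpina3n (0.95) and S100a6 (0.65) were higher too, and the early response gene Fos had 48.8 against 16.2 CPM (1.59).

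Of the markers, Calb2 had a log2 ratio of 0.05 and Adcyap1 -0.15, while Nxph4 had -0.50 and Th -1.45 (-2.02 to -0.91). Slc6a3 had 9 UMIs in 5xFAD-Dp16 against 58 in Dp16 (-3.16), and Ddc had -0.68. These catecholamine ratios rested largely on single spots of Dp16, which held 43 of the 85 Th UMIs, 34 of the 58 Slc6a3 UMIs and 28 of the 67 Ddc UMIs. Without the Dp16 spot with most UMIs of the gene, Th had a log2 ratio of -0.45 (-1.10 to 0.19), which is not past 1.5-fold. Ddc then had 0.08 and Slc6a3 -1.90. With the top spot left out in both sections, the values were -1.06 for Th, 0.01 for Ddc and -2.26 for Slc6a3. Gad1 (-1.52), Slc32a1 (-1.33), Pvalb (-1.41), Sst (-1.55) and Cartpt (-1.22) were lower, and Tac1 (0.98) and Penk (1.32) were higher. Both ratios rest on the same 5xFAD-Dp16 spots, so these genes are not 2 independent results. Tac1 had 411 CPM in 5xFAD-Dp16, 256 in 5xFAD and 208 in Dp16, and Gad1 had 47.6, 117 and 137 CPM.

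Levels in Thalamus spots of the same sections are given beside several of the highest and lowest genes. Bc1 had 22095 CPM in 5xFAD-Dp16 against 6769 CPM in Dp16 (1.71), and 10634 against 4813 CPM in Thalamus spots. Malat1, a nuclear noncoding RNA, had 472 against 178 CPM (1.41), and 515 against 243 CPM there. Sgk1, a glucocorticoid-induced kinase, had 75.3 against 19.5 CPM (1.95), and 99.2 against 36.5 CPM there. Lrrc17 had 1.38 and Dcaf17 1.41. Among the lowest genes, Gstp1, a glutathione transferase, had 59.3 against 180 CPM (-1.60), and 40.8 against 162 CPM there. Hmga1 (-1.74) and Gm47283 (-1.60) were also lower in Thalamus spots, with 9.02 against 39.7 CPM and 36.9 against 80.0 CPM. Ttr had -2.74. Whether such genes follow the genotype or the library was not tested, since each genotype is 1 library.

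None of 70 nuclear genes of oxidative phosphorylation was past 1.5-fold, with medians of -0.03 in 5xFAD-Dp16 over 5xFAD and -0.05 in 5xFAD-Dp16 over Dp16, which TMM scaling turned to 0.06 and 0.03. None of 18 heat shock and protein-folding genes was either (-0.14 and -0.07). Of 16 cholesterol synthesis genes none and 1 (Cyp51) were past it, both sets with medians near those of all genes (-0.07 and -0.03). Of 24 synaptic genes, Sv2b and Gria2 were lower in the first and Syp and Cplx1 in the second, or 2 of 24 in each, beside 4.27% and 3.39% of all genes.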

How the data were processed

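The authors deposited raw UMI counts for 19090 genes in 10549 spots, with the percent of mitochondrial UMIs, a region, an expression cluster and plaque marks for each spot. Space Ranger, Seurat and the mm10 build are named per the submitters' processing notes; versions, and how regions, clusters and marks were made, are not given in the sources used here. Members were all spots with the region label Hypothalamus and cluster 4; none was left out and no doublet caller was run. Members and lists were chosen with earlier results of these data known.

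UMIs were summed per section and kind of spots and scaled to CPM. Ratios have exact conditional binomial (Clopper-Pearson) intervals at 95%, and all intervals cover counting error only. Ratios against 0 UMIs used 3 counts as the floor. Genes of at least 20 CPM on average were counted when past 1.5-fold, between kinds of spots also beyond counting error in every section. Sections needed at least 30 spots of both kinds. Intervals were checked on simulated Poisson counts of 5831 genes (5xFAD-Dp16 over 5xFAD) and 5861 genes (5xFAD-Dp16 over Dp16). Among the genes simulated without a change, the true ratio lay in its interval for 95.3% and 95.9%. Named were the given markers, genes of the catecholamine, PACAP and neurexophilin lists at 20 CPM, the most abundant and most extreme members of each list, and the highest and lowest genes of each comparison (15 and 8 over other Hypothalamus spots, 8 and 5 over the other 2 kinds, 8 and 8 for each genotype ratio outside the segment, 5 and 3 within it); genes outside this rule were chosen after their values were seen. RefSeq gave gene positions on GRCm38. The 4 sections shared array barcodes (127 of 321 distinct barcodes of the spots in at least 2 sections), which name array positions, and no 2 spots had identical counts. Some genes that this rule names are not reported here. Tools were Python 3.11.15, numpy 2.4.6, scipy 1.17.1, pandas 2.3.3, matplotlib 3.10.9 and, for TMM factors only, edgeR 4.0.16 in R 4.3.3.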

Additional observations from a re-analysis of the deposited data

Results flagged for a closer look

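For 5 genes the log2 ratio of cluster 4 Hypothalamus spots over other Hypothalamus spots had opposite signs in different sections, and the difference was not tested. Tac1 had -0.35 in 5xFAD-Dp16, 2.42 in 5xFAD and 1.96 in Dp16, Sst had -1.19, 0.82 and 0.52, and Ddc had -1.17, 1.74 and 0.68. The sections differ in which clusters make up the other Hypothalamus spots, among them 48 spots of cluster 16 in 5xFAD-Dp16, none in 5xFAD and 25 in Dp16. Gnas had 0.036, 0.10 and -0.061, and Vsnl1 had 0.17, 0.10 and -0.22, all within 1.5-fold.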

How the results depend on the processing

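Kinds of spots were compared within each of the 3 sections, with no test, since the clusters were made from expression. No paired analysis was possible because, between genotypes, each has 1 section and the labels give no replicate numbers. Over other Hypothalamus spots, the 40 higher and 64 lower genes became 73 higher at 5 CPM, 23 and 37 at 50 CPM, 77 higher with no minimum, and 15 and 16 at 2-fold; leaving out 1 section gave 54 to 129 and 84 to 159. Over other cluster 4 spots, 15 and 22 became 25 and 35 at 5 CPM, 10 lower at 50 CPM, 26 and 35 with no minimum, and 5 and 11 at 2-fold, or 18 to 24 and 38 to 41 without 1 section. Over Thalamus, 111 and 415 became 179 higher at 5 CPM, 57 and 183 at 50 CPM, 206 higher with no minimum, and 31 and 151 at 2-fold, or 130 to 167 and 446 to 766 without 1 section. For 5xFAD-Dp16 over 5xFAD, 98 and 251 became 180 and 163 with TMM, 615 and 1025 at 5 CPM, 23 and 57 at 50 CPM, 2048 and 3772 with no minimum, 10 and 40 at 2-fold, and 223 higher without plaque and neighbour spots. For 5xFAD-Dp16 over Dp16, 96 and 199 became 149 and 131 with TMM, 589 and 909 at 5 CPM, 18 and 39 at 50 CPM, 2047 and 3003 with no minimum, and 14 and 25 at 2-fold. The cause was not tested where a count is not set by the threshold itself. With TMM the median of nuclear oxidative phosphorylation genes in 5xFAD-Dp16 over Dp16 was 0.029 in place of -0.05. The median of segment genes in 5xFAD-Dp16 over 5xFAD lay between 0.43 and 0.62 under every alternative run. The smallest of the 3 log2 ratios over other Hypothalamus spots was 1.33 to 1.61 for Adcyap1, 1.17 to 1.84 for Calb2, 1.27 to 1.56 for Nxph4 and 1.03 to 2.61 for Th when 1 section was left out. In 5xFAD-Dp16 over Dp16, Ddc turned from -0.68 to 0.013 without the spot with most of its UMIs in both sections, and to 0.084 without that of Dp16 alone. The values without such a spot and the call beyond counting error were added after the data had been seen. Low counts limit Th and Slc6a3, and the single section a genotype limits all genotype ratios.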
